A study of Mus musculus with 6 samples.

Results

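The TRIM genes encode the tripartite motif proteins, and 68 of the 54532 genes in the count table belonged to them, chosen as protein-coding genes whose symbol is Trim followed by a digit. They were examined in cultured mouse endothelial cells, the lining cells of blood vessels, exposed for 72 h to lentivirus that carried either an empty vector (Control, n = 3 libraries) or RBPMS, a protein that binds RNA through its RRM domain (RBPMS, n = 3). Both groups received lentivirus and the same medium, so neither is an uninfected culture. The sources used here do not give the mouse strain, the vessel of origin or the species of the RBPMS sequence. Ribosomal RNA was removed before sequencing. Whether the replicates came from separate cultures is not stated, so p-values measure the spread between these libraries only, and that spread may be technical.

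A TRIM protein typically has a RING domain, B-boxes and a coiled coil. In most members that have it, the RING acts as a ubiquitin ligase, which attaches ubiquitin chains to target proteins. What follows the coiled coil differs between members and sets much of what each one binds: a PRY-SPRY domain in many antiviral members, NHL repeats in others, a PHD finger with a bromodomain in the transcription cofactors. Several members take part in innate immunity, where they mark viral proteins or tune the sensors that lead to interferon, and interferon in turn raises the transcription of some of them. Of the 68 genes, 16 were placed on an antiviral list (Trim6, Trim12a, Trim12c, Trim14, Trim21, Trim25, Trim26, Trim30a to Trim30d, Trim34a, Trim34b, Trim38, Trim56 and Trim65) and the other 52 formed the rest of the family.

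The antiviral list was concentrated at 1 place in the genome. A cluster of 10 TRIM genes lies within 289.1 kb of chromosome 7 (GRCm38, 104218793 to 104507849). Of these 10, 9 are on the antiviral list. The other is Trim5, which the list as fixed left with the rest of the family, although TRIM5 is known as a retroviral restriction factor. The remaining groups of neighbouring members, joined where gaps were at most 500000 bases, held 2 to 5 genes each. Some genes of the chromosome 7 cluster resemble one another in sequence, and the pairs shown here do so in their promoters as well. The 4 stretches shown here lie just before the RefSeq start of their gene (GRCm38.p6, minus strand, read 5′ to 3′ along the gene). The pairs are Trim30a with Trim30d and Trim12c with Trim5. They are shown because the genes of each pair share a stretch of promoter and differ widely in counted RNA. Capitals mark TTTC followed 2 bases later by a further TTTC. Read on the opposite strand this is GAAA, any 2 bases and GAAA, a short form of the element that interferon-activated factors bind.
Trim30a, chr7:104465200-104465249: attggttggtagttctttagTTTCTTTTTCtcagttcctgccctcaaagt
Trim30d, chr7:104507861-104507910: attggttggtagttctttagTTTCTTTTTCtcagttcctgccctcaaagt
Trim12c, chr7:104353363-104353398: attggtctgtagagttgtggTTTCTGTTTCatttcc
Trim5, chr7:104288126-104288175: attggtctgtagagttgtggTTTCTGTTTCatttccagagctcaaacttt

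The longest identical run between the 300-base windows of Trim30a and Trim30d, from 250 bases before the start to 50 after it, was 118 bases. Between Trim12c and Trim5 it was 71 bases, and across the pairs, between Trim30a and Trim12c, it was 9 bases. This 10-base motif was searched on both strands in these windows, and any match counted its gene once. It was found for 7 of the 14 antiviral members with a RefSeq window (50%): Trim12a, Trim12c, Trim21, Trim26, Trim30a, Trim30d and Trim34a. Of the other members it was found for 2 of 39 (5.13%), Trim2 and Trim5, and of all genes with a window for 3.99% of 27025. A match is a description of the letters, and the window of Trim25 held none.

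Levels across the family spanned a wide range, with Trim28 on top. Per kb of annotated length, the scale on which genes can be compared, Trim28 had a mean of 65.6 CPM (counts relative to library size, scaled by edgeR's TMM method) over the 6 libraries. It encodes KAP1, the corepressor that zinc finger proteins recruit to silence repeats. Next came Trim8 (53.3 CPM per kb), a regulator of cytokine signalling, then Trim35 (37.2), Trim25 (29.7) and Trim30a (23.4). Of these 5 genes 2, Trim25 and Trim30a, are on the antiviral list. In all, 38 members passed the filter on low counts with all 6 libraries or without Control replicate 3, 12 antiviral and 26 other. No count was seen for 6 members (Trim31, Trim42, Trim52, Trim55, Trim58 and Trim60), which over all 6 libraries together allows up to 0.026 CPM (3 counts, counting error only). The other 24 had a mean under 1 CPM, so nothing is said about a change in them.

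**Figure D1:**
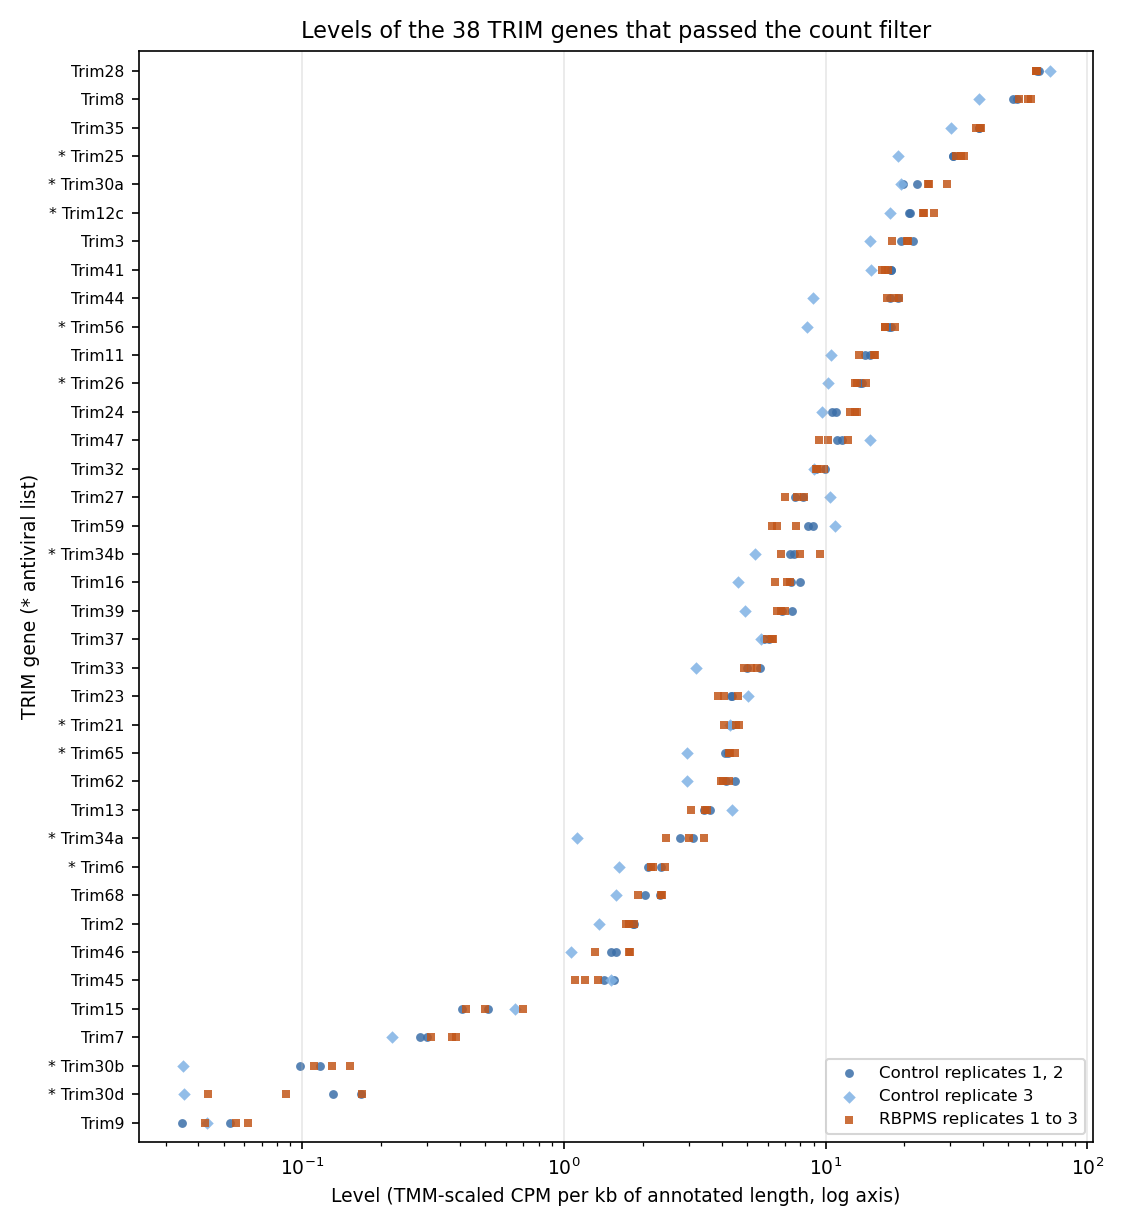
Level of each of the 38 TRIM genes that passed the filter, as TMM-scaled CPM per kb of annotated length on a log axis, 1 point per library. Trim28 lies highest at a mean of 65.6 and Trim9 lowest at 0.049, and Control replicate 3 (diamonds) lies apart from the other libraries for many genes.

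Members known from striated muscle were close to nothing in these cells. Trim63, Trim55 and Trim54 encode the muscle RING finger proteins, which act at the sarcomere. Trim55 had no count, Trim63 had 1 count in 1 library, and Trim54 had 0 to 7 counts per library. Trim72, a membrane repair protein of muscle, had 0 to 9. Endothelial markers matched the label, with the 8 genes fixed for it (among them Pecam1, Cdh5 and Tie1) summing to 11358 to 17857 CPM in controls and 15135 to 16024 CPM with RBPMS. The lowest control was Control replicate 3, and the other controls (17381 and 17857 CPM) lay above every RBPMS library. Without Control replicate 3, by the test described below, 50% of these 8 were called, against 7.24% of all genes. Vwf (-0.45) and Kdr (-0.21) fell and Erg (0.21) and Emcn (0.17) rose on the log2 scale. Over all 6 libraries Vwf was at -0.18, Kdr at -0.014 and Erg at 0.32, while Emcn had the opposite sign (-0.075), and none was called. Markers of striated muscle summed to at most 3.74 CPM, with Myod1 at 0, those of smooth muscle to at most 1.48 CPM, with Rgs5 at 0, and those of fibroblasts to at most 7.79 CPM.

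Control replicate 3 stood apart from the other libraries, so it is described before the results. Total counts ran from 15779567 to 23076124 per library, the highest being Control replicate 3. Its log2 CPM correlated across genes at 0.954 to 0.960 with the other libraries, and those among themselves at 0.991 to 0.995. TRIM members took 0.168% of its counts, against 0.213% to 0.222% in the other 5 libraries. The difference from Control replicates 1 and 2 was computed on log2(CPM + 0.5). It had a median of -0.41 over the 37 members that passed the filter with all 6 libraries and of 0.0059 over all 13898 genes tested. Control replicate 3 lay below both other controls for 28 of these 37 members (75.7%) and for 45% of all genes. For the antiviral list this held for 11 of 11, with a median difference of -0.46, and for the other members for 17 of 26, with a median of -0.28. The targeted gene followed the labels in all libraries: Rbpms had 55.1 to 57.0 CPM in the 3 controls and 130.5 to 147 CPM in the 3 RBPMS libraries.

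Genes with a greater annotated length were generally lower in this library, and the antiviral members lay below that trend. At the lengths of the antiviral members the trend over all genes had a median of -0.12, and the members lay a median of 0.31 below it (-0.31). For the other members the trend had a median of -0.080, with the members at -0.12 relative to it. All genes tested had a median of 0.056 relative to the trend. The lowest difference belonged to Trim34a (-1.25), followed by Trim56 (-1.06) and Trim44 (-1.02). Trim21 was the antiviral member closest to 0 (-0.012). What made this library differ was not tested.

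**Figure D2:**
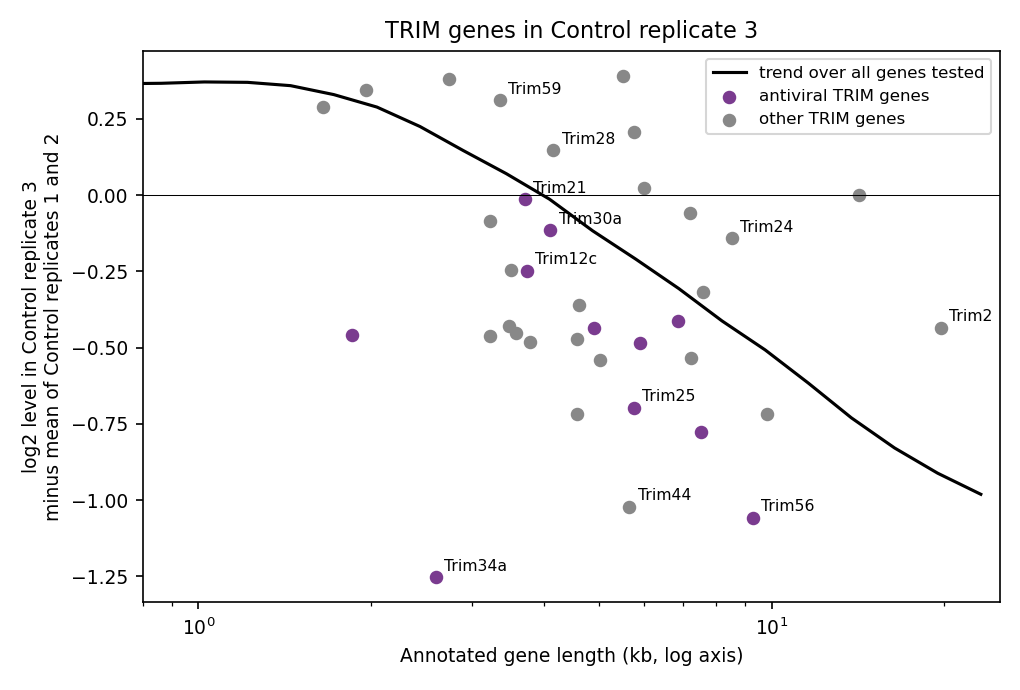
Difference on the log2 scale between Control replicate 3 and the mean of Control replicates 1 and 2, by annotated length in kb (log axis), for the 37 TRIM genes that passed the filter with all 6 libraries. The line is a loess trend over all 13898 genes tested, and all 11 antiviral genes lie below 0, from -0.012 for Trim21 to -1.25 for Trim34a.

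RBPMS against empty vector was therefore compared over all 6 libraries and again without Control replicate 3, which leaves 2 controls and 3 RBPMS libraries and is called the 5-library fit. Over all 6, edgeR's quasi-likelihood test called no TRIM gene and no gene at all (0% of 13898 tested, Benjamini-Hochberg adjusted p threshold 0.05). Even Rbpms itself missed that threshold (edgeR adjusted p = 0.061), while it passed in the 5-library fit (edgeR adjusted p = 3.6e-11). At an unadjusted p under 0.05 over all 6 libraries there were 4 of 37 members, against 7.56% of all genes. Of these 4, 3 were higher (3.48% of all genes). DESeq2 and limma-voom also called 0 members over all 6 libraries, while over all genes DESeq2 called 56 (0.403%) and limma-voom 0 (0%). The 5-library fit by edgeR called 4 of 38 members (10.5%), against 1022 of 14123 genes (7.24%). Of the 4, Trim30a, Trim12c and Trim24 were higher with RBPMS (3.81% of all genes were called higher) and Trim59 was lower (3.43% were called lower). The same 4 genes made up the unadjusted count over all 6 libraries. In the 5-library fit 5 members had an unadjusted p under 0.05 (20.9% of all genes), 4 of them higher (10.4%). The fits share 5 libraries, and the share of members called lay close to that of all genes.

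Trim30a was the antiviral member with the smallest p. This interferon-inducible gene (ENSMUSG00000030921, chromosome 7, 104409025 to 104465193, minus strand) encodes a protein known to dampen NF-kB signalling. Its level was 81.1, 91.9 and 79.8 CPM in Control replicates 1 to 3, and 119, 102 and 102 CPM in RBPMS replicates 1 to 3. The groups were apart, with the controls below, and RBPMS replicate 1 stood above the other RBPMS libraries. The log2 fold change was 0.32 ± 0.068 (SE) in the 5-library fit, a 1.25-fold rise, with an edgeR adjusted p of 0.0056. Over all 6 libraries it was 0.35 ± 0.12, with an adjusted p of 0.59. The call was lost in the 5-library fit on leaving out Control replicate 1 too (0.23, edgeR adjusted p = 0.17). Its transcripts share 11.7% of their 31-base words with other genes, mostly Trim30d, which lay at 0.13 to 0.64 CPM, and how reads were assigned between them was not tested.

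Trim12c, a mouse relative of the retroviral restriction factor TRIM5, also rose. Its gene (ENSMUSG00000057143) lies in the same cluster, at 104338754 to 104353362 on the minus strand. Control replicates 1 to 3 had 77.6, 78.9 and 65.8 CPM, and RBPMS replicates 1 to 3 had 97.2, 88.8 and 88.1 CPM. The groups did not overlap, and the lowest RBPMS library exceeded the highest control. The 5-library log2 fold change was 0.23 ± 0.057 (1.17-fold, edgeR adjusted p = 0.017), and over all 6 libraries it was 0.30 ± 0.11 (adjusted p = 0.59). With a further library left out, the call was lost for Control replicate 1 (0.21, adjusted p = 0.16), Control replicate 2 (0.24, adjusted p = 0.078) and RBPMS replicate 1 (0.18, adjusted p = 0.11). Counts of Trim12c are uncertain where near-identical copies split reads, since 47.7% of its 31-base words occur in other genes and 38.7% in Trim5. The locus of Trim12c also overlaps Gm27995 on the same strand. Trim5 itself had 2 to 7 counts per library and Trim12a at most 1.

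The 2 promoter pairs shown above can be read beside these levels. Trim30a and Trim30d carry the same 50 bases, and Trim30a lay at 79.8 to 119 CPM and Trim30d at 0.13 to 0.64 CPM. Trim12c and Trim5 share the motif and the bases before it, and Trim12c lay at 65.8 to 97.2 CPM while Trim5 had a mean of 0.20 CPM. The split of reads within each pair is uncertain. Of the 31-base words of Trim12c 38.7% occur in Trim5, and of those of Trim30a 8.53% occur in Trim30d. What sets these levels was not tested.

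Trim24 was the called member outside the antiviral list that rose. It encodes a bromodomain cofactor of nuclear receptors that also acts as a ubiquitin ligase for p53 (ENSMUSG00000029833, chromosome 6, 37870811 to 37966296, plus strand). Levels were 93.0, 89.8 and 82.9 CPM in the controls and 110.1, 112 and 105 CPM with RBPMS, without overlap and with little spread among the RBPMS libraries. The log2 fold change was 0.26 ± 0.051 in the 5-library fit (1.20-fold, edgeR adjusted p = 0.0027) and 0.30 ± 0.099 over all 6 libraries (adjusted p = 0.59). With a per-library correction for annotated length the 6-library value was 0.13. Leaving out Control replicate 2 from the 5-library fit gave 0.23 with an edgeR adjusted p of 0.052.

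Trim59 fell. It encodes a membrane-anchored TRIM protein of the endoplasmic reticulum and has been linked to cell proliferation (ENSMUSG00000034317, chromosome 3, 69035288 to 69044755, minus strand). Control replicates 1 to 3 had 29.9, 28.6 and 36.4 CPM, and RBPMS replicates 1 to 3 had 20.9, 21.8 and 25.9 CPM. Every RBPMS library lay below every control, and Control replicate 3 was the highest. Its 5-library log2 fold change was -0.36 ± 0.092 (edgeR adjusted p = 0.020), and over all 6 it was -0.47 ± 0.14 (adjusted p = 0.59). The call was lost when a further library was left out, with an edgeR adjusted p of 0.16 for Control replicate 1, 0.072 for Control replicate 2, 0.12 for RBPMS replicate 1 and 0.059 for RBPMS replicate 2. The transcripts of Trim59 share 10.9% of their 31-base words with other genes, 8.04% with Gm15381, and how reads were assigned between them was not tested. Trim13, the other member of the endoplasmic reticulum membrane, had 5.67 to 7.22 CPM in controls and 5.04 to 5.81 CPM with RBPMS, and was not called.

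**Figure D3:**
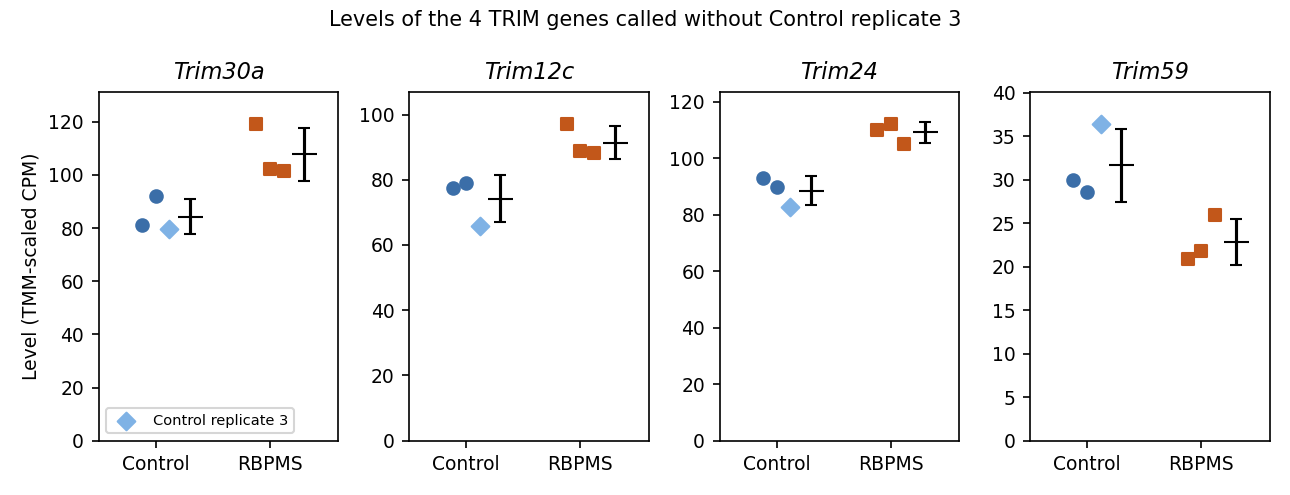
Level in TMM-scaled CPM of the 4 TRIM genes called without Control replicate 3, 1 point per library, with the mean ± SD of all 3 libraries of each group at the right of the points. The RBPMS libraries lie above all controls for Trim30a, Trim12c and Trim24 and below all controls for Trim59.

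Antiviral members and the rest of the family were set side by side as lists, without a test. Over all 6 libraries 11 of 11 antiviral members had a positive log2 fold change, with a median of 0.26, while 19 of 26 other members did, with a median of 0.082. Among all genes 49% were positive, with a median of -0.0083. Without Control replicate 3 the antiviral median was 0.048, with 9 of 12 positive and 2 called higher. The rest of the family in that fit had a median of -0.030, with 9 of 26 positive, 1 called higher and 1 called lower. Of all genes 49.3% were positive, 3.81% were called higher and 3.43% were called lower, so calls this few say little about either list. The offset between the lists was thus 0.26 against 0.082 with that library and 0.048 against -0.030 without it. Correcting each library for annotated length left the antiviral median at 0.23 over all 6 libraries and the other members at 0.020. The median of all genes moved as well, from -0.0083 to -0.044.

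**Figure D4:**
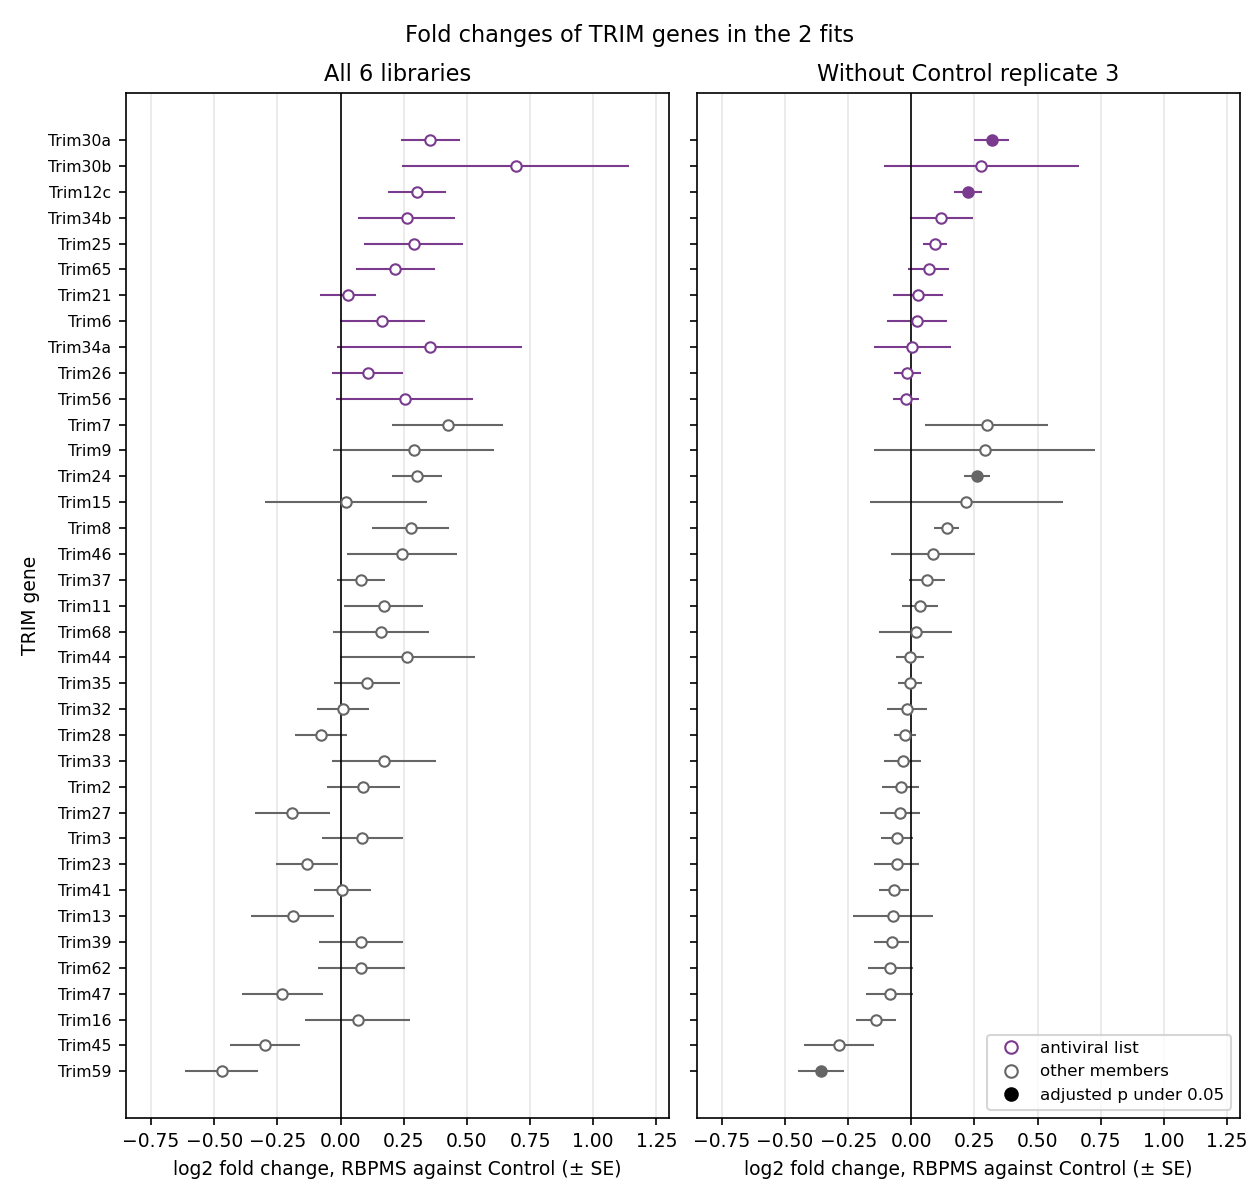
Fitted log2 fold change of RBPMS against Control with its SE for the 37 TRIM genes that passed the filter with all 6 libraries, in the fit over all 6 (left) and without Control replicate 3 (right), filled where the adjusted p was under 0.05. All 11 antiviral genes are positive on the left, and on the right 4 genes are filled, from -0.36 for Trim59 to 0.32 for Trim30a.

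Among markers of other cell types, the leukocyte and epithelial lists moved with the groups, in opposite directions. The 6 leukocyte genes summed to 42.5 to 47.2 CPM in controls and 54.8 to 60.0 CPM with RBPMS, without overlap. Nearly all of this was Cd68, a lysosomal protein gene that rose in the 5-library fit (0.34 ± 0.072, edgeR adjusted p = 0.0054), at 41.3 to 46.4 CPM in controls and 53.2 to 58.2 CPM with RBPMS. The defining leukocyte gene Ptprc was at or under 0.16 CPM in every library, and Adgre1 was at 0. Epithelial markers summed to 20.1 to 24.4 CPM in controls and 15.9 to 20.02 CPM with RBPMS, without overlap but by a slight margin. Nearly all of it was Msln, with Epcam and Krt18 at 0. Msln was not called in the 5-library fit (-0.32, edgeR adjusted p = 0.077). The part of these genes in the antiviral values was not tested, and in bulk RNA fewer cells of a type and less RNA per cell cannot be told apart.

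The antiviral list was also split by place. In the 5-library fit the 7 cluster members that passed the filter had a median log2 fold change of 0.12 and held both antiviral calls. The 5 antiviral members elsewhere had a median of 0.027, with 0 called, and 3.81% of all genes were called higher in that fit. These are descriptions of few genes.

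Trim25 and Trim21, antiviral members with well-known functions, were not called. Trim25, the ligase that ubiquitinates the RNA sensor RIG-I, had 177, 176 and 109 CPM in Control replicates 1 to 3 and 194, 189 and 181 CPM in RBPMS replicates 1 to 3. The groups were apart, by a small margin from Control replicates 1 and 2 and by a large one from Control replicate 3. Its log2 fold change was accordingly 0.29 ± 0.20 over all 6 libraries (edgeR adjusted p = 0.59) and 0.094 ± 0.047 in the 5-library fit (adjusted p = 0.27). Trim21, the cytosolic antibody receptor, had 16.1, 16.3 and 16.1 CPM in controls and 16.9, 17.3 and 15.2 CPM with RBPMS, so that the groups overlapped. In the 5-library fit it changed by 0.027 ± 0.099 on the log2 scale (edgeR adjusted p = 0.92), and it is one of the members whose promoter window held the motif.

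For Trim56, Trim26 and Trim34a the log2 fold change was close to 0 once Control replicate 3 was left out. Trim56, an interferon-inducible ligase, had 166, 162 and 78.6 CPM in Control replicates 1 to 3 and 171, 156 and 157 CPM with RBPMS. Control replicate 3 was alone at the bottom, and the log2 fold change went from 0.25 ± 0.27 with it to -0.021 ± 0.050 without it. Trim26, which targets the transcription factor IRF3, had 94.3, 93.1 and 70.3 CPM in controls and 90.8, 98.3 and 88.6 CPM with RBPMS. Its log2 fold change went from 0.11 ± 0.14 to -0.015 ± 0.054. For Trim34a the value went from 0.35 ± 0.37 to 0.0039 ± 0.15, with 8.04, 7.21 and 2.90 CPM in controls and 6.35, 7.76 and 8.87 CPM with RBPMS. None of these 3 genes passed the test in either fit.

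The remaining antiviral members were not called in either fit. Trim65, which acts on the RNA sensor MDA5, had 24.2, 24.9 and 17.4 CPM in controls and 25.3, 26.6 and 25.2 CPM with RBPMS. Its groups did not overlap, yet the log2 fold change was 0.069 ± 0.081 over 5 libraries and 0.22 ± 0.16 over 6, and its locus overlaps Trim47 on the same strand. Trim34b ran from 9.90 to 14.1 CPM in controls and from 12.5 to 17.5 CPM with RBPMS, with log2 fold changes of 0.12 ± 0.12 over 5 libraries and 0.26 ± 0.19 over 6. It shares 69% of its 31-base words with Trim34a, so counts of these 2 genes may be exchanged. Trim6, which makes free ubiquitin chains in interferon signalling, ran from 7.92 to 11.5 and from 10.5 to 11.9 CPM (0.023 ± 0.12 over 5 libraries, 0.17 ± 0.17 over 6). Trim30b stayed at or under 1.15 CPM in every library, with 0.28 ± 0.38 over 5 libraries and 0.69 ± 0.45 over 6, the highest fitted value of the family in the 6-library fit. Control replicate 3 was the lowest library for each of these 4 genes. Trim30d did not pass the filter with all 6 libraries and was tested in the 5-library fit (-0.55 ± 0.55). Trim12a, Trim14, Trim30c and Trim38 did not pass the filter, with 0 to 7 counts in any library.

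Groups that do not overlap were common in these data and are read against that. Over all 6 libraries 10 of 37 members (27%) had groups apart, against 24.7% of all genes. Of these, 7 were higher (12.1% of all genes) and 3 lower (12.6%). The higher ones were Trim7, Trim8, Trim12c, Trim24, Trim25, Trim30a and Trim65, and the lower ones Trim28, Trim45 and Trim59. With 5 libraries it was 12 of 38 members, against 37.4% of all genes, 7 higher (18.3%) and 5 lower (19%).

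Trim8, Trim45 and Trim7 had groups apart without being called. Trim8 had 169, 174 and 124 CPM in the controls and 192, 196 and 178 CPM with RBPMS, with a 5-library log2 fold change of 0.14 ± 0.050 (edgeR adjusted p = 0.099). It was called once RBPMS replicate 3 was left out too (0.18, edgeR adjusted p = 0.018). Trim45 had 9.36, 8.57 and 9.11 CPM in controls and 8.11, 7.25 and 6.62 CPM with RBPMS. All 3 controls lay together and above the RBPMS libraries, and the log2 fold change was -0.29 ± 0.14 over 5 libraries (edgeR adjusted p = 0.24) and -0.30 ± 0.14 over 6. Trim7 was lower in level, at 1.67 to 2.28 CPM in controls and 2.35 to 2.93 CPM with RBPMS (0.30 ± 0.24).

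The transcription cofactors other than Trim24 were not called. Trim28 had 273, 268 and 299.7 CPM in Control replicates 1 to 3 and 267, 265 and 264 CPM in RBPMS replicates 1 to 3. The groups did not overlap, but the margin between the lowest control and the highest RBPMS library was slight. The log2 fold change was -0.026 ± 0.044 over 5 libraries and -0.078 ± 0.10 over 6. Trim33, a cofactor of SMAD4 signalling, had 55.3, 48.9 and 31.4 CPM in controls and 50.9, 47.9 and 53.7 CPM with RBPMS. Its groups overlapped, with log2 fold changes of -0.034 ± 0.073 over 5 libraries and 0.17 ± 0.21 over 6. Trim66, the remaining member of the cofactor group, had 2 to 13 counts per library and did not pass the filter.

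Members with NHL repeats were not called, and the 3 tested ones had log2 fold changes below 0 over 5 libraries (median -0.043) and above 0 over 6 (median 0.086). Trim3 ran from 67.2 to 98.3 CPM in controls and from 81.6 to 94.5 CPM with RBPMS, and its 5-library log2 fold change was -0.055 ± 0.063. For Trim2 the ranges were 26.8 to 36.5 and 34.2 to 36.6 CPM (-0.043 ± 0.074). Trim32, mutated in a form of limb-girdle muscular dystrophy, ran from 29.1 to 32.1 CPM and from 29.7 to 31.9 CPM (-0.018 ± 0.078). Trim71, a stem cell member repressed by let-7, had counts in only 2 libraries, 7 in Control replicate 3 and 2 in RBPMS replicate 2. Of the microtubule-associated members with a COS box, Trim46 and Trim9 passed the filter and neither was called, with 5-library log2 fold changes of 0.085 ± 0.17 and 0.29 ± 0.44.

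Other members near the ends of the range were not called either. Trim16, linked to damaged lysosomes, had 36.4, 33.6 and 21.04 CPM in controls and 29.4, 33.3 and 32.5 CPM with RBPMS, and its log2 fold change differed in sign between fits (-0.14 ± 0.080 over 5 libraries, 0.068 ± 0.21 over 6). Trim47 was among the members higher in Control replicate 3, with 30.2, 31.6 and 40.4 CPM in controls and 33.3, 28.0 and 25.9 CPM with RBPMS (-0.085 ± 0.093 over 5 libraries, -0.23 ± 0.16 over 6). Trim35, abundant in every library, ran from 139 to 179 CPM in controls and from 173 to 182 CPM with RBPMS (-0.0051 ± 0.046). The 10 tested members not described with values were not called, with 5-library log2 fold changes between -0.083 for Trim62 and 0.22 for Trim15.

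Genes that work with TRIM proteins were read from the same fits, in 4 lists. In RNA sensing and interferon signalling 2 of 17 genes (11.8%) rose and 0 fell in the 5-library fit, where 3.81% of all genes were called higher, and the list median was 0.099. Ddx58, which encodes RIG-I, the target of TRIM25, had 167, 183 and 137 CPM in controls and 209, 199 and 201 CPM with RBPMS (0.21 ± 0.050, edgeR adjusted p = 0.011). Ikbke, a kinase upstream of IRF3 that TRIM6 serves, had 97.6, 103 and 77.0 CPM in controls and 118, 130.2 and 109 CPM with RBPMS (0.25 ± 0.061, adjusted p = 0.016). The interferon receptor gene Ifnar1 (0.10 ± 0.046) and Zc3hav1 (0.098 ± 0.047), both abundant, did not pass. Isg15, an interferon-induced ubiquitin-like protein, was spread within groups, at 15.0 to 28.6 CPM in controls and 11.7 to 23.0 CPM with RBPMS.

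Of 10 ubiquitin-conjugating enzymes that can serve TRIM ligases, 0 passed in either direction in the 5-library fit (7.24% of all genes passed), and the median log2 fold change was -0.021. With all 6 libraries it was -0.19, with 9 of 10 negative, against 5 of 10 in the 5-library fit. Ube2n, which builds signalling ubiquitin chains and was the highest of the list per kb (26.7 CPM per kb), had 100.9 to 148 CPM, and Control replicate 3 was its highest library. Of 7 partners of TRIM28 in silencing, 0 rose and 1 fell over 5 libraries (3.43% of all genes fell): Cbx5, an HP1 protein that binds methylated histone H3, had 278, 246 and 152 CPM in controls and 233, 221 and 240.5 CPM with RBPMS. Its groups overlapped, and the log2 fold change was -0.18 ± 0.054 over 5 libraries (edgeR adjusted p = 0.048) and 0.038 over 6. Of 4 genes related to the family under other names, Pml, Mid1 and Mid2 were tested with 0 called, and Mefv had no count. Pml, the nuclear body organiser, had 103, 104 and 54.5 CPM in controls and 105, 104 and 97.3 CPM with RBPMS. Over all 6 libraries 0 of the 37 tested genes of these lists were called by edgeR, DESeq2 or limma-voom, with 2 at an unadjusted p under 0.05 (7.56% of all genes).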

How the data were processed

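The authors deposited whole-number counts per gene for 6 RNA-seq libraries. Per the submitters' processing notes FastQC, Salmon and mm10 were used, but the step that gave gene counts, the versions and the use of strand are unstated there. Groups and replicate numbers came from sample titles, columns from their names. All 68 members are in GENCODE M21 (GRCm38), 66 with identical coordinates, and 53 had a RefSeq promoter window.

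Counts were analysed in R 4.3.3 with edgeR 4.0.16 quasi-likelihood fits over all genes (filterByExpr by group, TMM, threshold of 0.05 on the Benjamini-Hochberg adjusted p), with and without Control replicate 3. The SE is the log2 fold change divided by the square root of F. Alternatives were DESeq2 1.42.0, limma 3.58.1 (voom), other scalings and filters (none, or at least 1 CPM in 3 libraries), a length trend (loess span 0.3), a replicate block and leaving out each library. The tests were also run on simulated counts, and no statement here rests on that run. Replicate pairs without Control replicate 3 had a chi-square per degree of freedom of 3.19 to 4.32, so none was a copy. The members, lists and the choice to leave out that library were made with earlier results of these data known. Named members were all antiviral ones tested, all called, the 5 most abundant per kb, the 3 highest and 3 lowest fold changes per fit and those with groups apart (mean log2 CPM of at least 1), plus tested members of the role groups.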

Additional observations from a re-analysis of the deposited data

How the results depend on the processing

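Over all 6 libraries edgeR called 0 genes, against 5 without a filter, 56 by DESeq2 and 3 with the length trend. Leaving out each library gave 0 to 1022 genes, 0 to 4 TRIM genes and 0 to 3 pathway genes, the highest each time without Control replicate 3. The antiviral median then ranged from 0.048 to 0.35. The median of the other members was 0.092 without a filter, 0.11 by limma-voom, 0.10 with the replicate block and 0.020 with the length trend, and ranged from -0.030 to 0.15 on leaving out each library. With the length trend Trim2 was at -0.27 and Trim9 at -0.019. Members not called changed sign on leaving out a library: Trim16 (-0.14 to 0.22), Trim2 (-0.043 to 0.16), Trim21 (-0.011 to 0.082), Trim26 (-0.015 to 0.18), Trim3 (-0.055 to 0.21), Trim32 (-0.025 to 0.053), Trim33 (-0.034 to 0.34), Trim35 (-0.0051 to 0.16) and Trim56 (-0.021 to 0.42).

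In the 5-library fit the 4 called members kept their calls with every other scaling, filter and tool and with the length trend. Leaving out a further library gave 1 to 5 TRIM genes, 415 to 1017 genes in all and 0 to 6 pathway genes, and where 1 control was left it was assumed to vary like the other libraries. The antiviral median then ranged from 0.051 to 0.086 and that of the others from -0.041 to 0.013. Without a filter 5 pathway genes were called and the other members' median was 0.077; with the length trend it was -0.044. Trim34a was at -0.00086 by total library size, -0.012 by limma-voom and -0.0063 with the length trend. Signs changed on leaving out a further library for Trim21 (-0.012 to 0.083), Trim26 (-0.061 to 0.018), Trim3 (-0.13 to 0.018), Trim32 (-0.076 to 0.040), Trim33 (-0.12 to 0.053), Trim34a (-0.11 to 0.13), Trim34b (-0.0071 to 0.23), Trim35 (-0.016 to 0.017), Trim56 (-0.062 to 0.0033) and Trim6 (-0.054 to 0.10). The causes were not tested.

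Deviations of same-numbered libraries from their group means had correlations of -0.025 to 0.050. Control replicate 3 made up much of the deviation among controls. Its chi-square per degree of freedom was 137 and 130 against Control replicates 1 and 2, which had 3.49 between them. These correlations therefore cannot decide whether the replicate numbers pair the libraries. With the replicate block 0 TRIM genes were called over all 6 libraries. The 5-library fit with the block called 5 TRIM genes, 917 genes and 6 pathway genes, adding Trim8 (0.18, edgeR adjusted p = 0.024), with an antiviral median of 0.080 and with Trim26 at 0.013, Trim3 at 0.0090, Trim34a at -0.11, Trim35 at 0.013 and Trim6 at -0.031. The 30 members that passed the filter neither with all 6 libraries nor with 5 had means under 1 CPM, where these depths allow no statement on a change. Leaving out Control replicate 1, Control replicate 2 or RBPMS replicate 3 from all 6 let 40 members pass.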
